A study of Mus musculus with 2 samples.

Results

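The protein-coding Hox genes of the mouse were examined in RNA sequencing data from intestinal subepithelial myofibroblasts (ISEMFs). They were taken as every protein-coding row of the deposited gene table whose symbol is Hoxa, Hoxb, Hoxc or Hoxd followed by a number. This gave 40 rows with 39 symbols among 22379 protein-coding genes and 37309 genes in all. Hoxa3 has 2 rows with different Ensembl identifiers. The study asked whether ISEMFs enhance the growth of intestinal stem cells in culture and allow their implantation in mice. It sequenced supportive and non-supportive ISEMFs to look for factors behind the support of crypts. Supportive ISEMFs were grown from neonatal C57BL/6 mice, which the study's methods give as 5 days old. Non-supportive ISEMFs were grown from adult C57BL/6 mice, given as 2 months old. Both are wild-type cultures of the small intestine expanded on culture plates, and 1 library of each was sequenced. Neither population has a replicate, so the differences given here have no replicate check, and the age of the mice cannot be told apart from the ability to support crypts. The names of the deposited columns carry codes that may be culture passages, which no source used here explains, and a difference in passage could not be told apart from the populations either. Whether cells of several mice were pooled is not given in the sources used here.

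Hox genes encode homeodomain transcription factors that give cells along the head-to-tail axis their regional identity. In the mouse they lie in 4 clusters on different chromosomes, and genes at the same place in each cluster form a paralog group with closely related homeodomains. Within a cluster the genes are read in one direction, and those at the 3′ end are switched on earlier and further towards the head than those at the 5′ end. Cultured fibroblasts are known to keep a Hox pattern that reflects the body region they came from, and the mesenchyme of the gut carries such a pattern along its length. The paralog groups are called anterior here for groups 1 to 3, central for groups 4 to 8 and posterior for groups 9 to 13.

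In mm9 coordinates the 12 Hoxa rows lie at chr6:52105366-52210874 on the minus strand and the 10 Hoxb genes at chr11:96055630-96229570 on the plus strand. The 9 Hoxc genes lie at chr15:102751534-102867274 and the 9 Hoxd genes at chr2:74506367-74603200, both on the plus strand. Each gene carries a homeobox, the stretch of 180 bases that encodes the DNA-binding homeodomain. Homeoboxes are shown for the 7 genes that passed both the minimum level and the 2-fold threshold defined below. Other Hox genes under that level also differed by more than 2-fold. The sequences are read 5′ to 3′ from the GENCODE transcripts of mm9, so that the relation of these genes to each other can be seen. Capitals mark the 18 bases from position 142 to 159 of the homeobox, which encode the conserved stretch of the DNA recognition helix.
Hoxa2 homeobox: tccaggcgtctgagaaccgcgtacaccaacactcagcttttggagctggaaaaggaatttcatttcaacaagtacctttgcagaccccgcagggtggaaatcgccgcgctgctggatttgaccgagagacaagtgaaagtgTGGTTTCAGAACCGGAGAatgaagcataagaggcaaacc
Hoxa5 homeobox: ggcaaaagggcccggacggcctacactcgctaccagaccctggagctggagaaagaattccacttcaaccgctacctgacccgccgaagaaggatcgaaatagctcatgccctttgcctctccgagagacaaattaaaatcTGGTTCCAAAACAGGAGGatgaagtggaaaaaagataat
Hoxc6 homeobox: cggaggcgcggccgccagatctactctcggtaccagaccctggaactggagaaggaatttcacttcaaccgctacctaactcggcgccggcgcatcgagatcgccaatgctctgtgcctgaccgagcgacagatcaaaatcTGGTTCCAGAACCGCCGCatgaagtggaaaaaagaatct
Hoxc8 homeobox: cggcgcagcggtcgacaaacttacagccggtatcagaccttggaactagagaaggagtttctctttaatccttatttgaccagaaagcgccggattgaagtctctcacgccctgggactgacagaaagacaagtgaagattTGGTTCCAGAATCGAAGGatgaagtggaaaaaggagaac
Hoxb9 homeobox: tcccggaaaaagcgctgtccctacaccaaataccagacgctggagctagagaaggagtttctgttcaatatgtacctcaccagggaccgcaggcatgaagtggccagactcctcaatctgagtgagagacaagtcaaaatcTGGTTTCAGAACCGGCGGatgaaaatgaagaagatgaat
Hoxc9 homeobox: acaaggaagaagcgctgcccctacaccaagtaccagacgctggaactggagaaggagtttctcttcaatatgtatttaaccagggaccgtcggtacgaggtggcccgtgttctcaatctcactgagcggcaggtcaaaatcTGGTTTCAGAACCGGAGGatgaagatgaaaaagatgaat
Hoxc10 homeobox: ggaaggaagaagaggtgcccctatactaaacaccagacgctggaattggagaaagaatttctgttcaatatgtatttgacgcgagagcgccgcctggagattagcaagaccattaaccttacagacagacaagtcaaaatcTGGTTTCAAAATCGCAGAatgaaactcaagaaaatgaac

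The homeoboxes of Hoxb9 and Hoxc9, which went in opposite directions between the libraries, were identical at 83.9% of positions. Over all pairs of Hox genes, homeoboxes of the same paralog group shared 67.2% to 93.9% of positions, with a median of 80.6% over 42 pairs. Those of the same cluster shared 48.3% to 88.9%, with a median of 61.7% over 172 pairs. The relation between paralogs bears on how reads were assigned, because the authors kept only reads of 50 bases with a unique hit and up to 2 mismatches. For 25 of 39 Hox genes, no stretch of 50 bases in the transcripts came within 2 mismatches of another Hox gene. The highest share of such stretches in any of them was 2.81%, in Hoxb3.

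The 250 bases before the first annotated base are shown for Hoxa5, the Hox gene with the lowest log2 ratio. They lie at chr6:52154587-52154836 on the minus strand of mm9. Capitals mark matches to the 4 motifs searched on both strands, which were TATAAA, the sequence CCAAT, the sequence TGATNNAT and the sequence AGGTCA.
Hoxa5 upstream: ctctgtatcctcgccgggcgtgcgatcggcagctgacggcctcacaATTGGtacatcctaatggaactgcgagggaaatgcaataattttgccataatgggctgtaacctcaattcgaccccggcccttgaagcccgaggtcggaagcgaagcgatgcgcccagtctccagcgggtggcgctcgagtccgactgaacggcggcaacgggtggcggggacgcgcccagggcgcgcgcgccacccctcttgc

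The stretch before Hoxa5 held the CCAAT motif, read as ATTGG on this strand, and none of the others. CCAAT was found before 65.0% of the 40 Hox rows and before 35.0% of 22374 protein-coding genes. TATAAA was found before 17.5% of the Hox rows and 12.3% of all, and TGATNNAT before 15.0% and 6.99%. AGGTCA was found before 7.50% and 12.6%. The windows of both Hoxa3 rows nearly coincide, so the same CCAAT and TATAAA matches count for each. The window before Hoxb7 lies inside Hoxb8. These matches describe letters in a window and not binding sites.

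Reads on genes numbered 50674472 for supportive and 49615497 for non-supportive ISEMFs. Mitochondrial genes took 14.6% and 7.85% of them. Of 8 macrophage markers, 8 were lower in the supportive library, where 3, Ptprc, Tyrobp and Emr1, had no read, and their summed RPKM was 6.95 against 122. RPKM is the number of reads per kilobase of exon, scaled to the size of the library. All 6 myofibroblast markers passed an RPKM of 1, with sums of 1976 and 2806, and the pair past 2-fold went opposite ways, Pdgfrb at 28.1 and 7.67 and Pdgfra at 3.37 and 12.1. Of 8 epithelial markers 1 did, Krt20, at 0.0799 and 3.13, and the list sums were 0.537 and 4.08. Cdh1, the gene of E-cadherin, went the other way at a low level, with 159 and 18 reads. None of 5 endothelial markers did, with sums of 0.135 and 0.216. Of 6 markers of neurons and glia 2 did, and S100b, a glial marker, was at 6.69 and 0.116 with list sums of 12.6 and 6.79. The part of these other cells and of the mitochondrial reads in the Hox values was not tested. In such libraries, fewer cells of a type and less RNA per cell cannot be told apart.

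The Hox genes together took 24497 supportive and 15050 non-supportive reads, which was 0.0483% and 0.0303% of the reads on genes. Their summed level was 1.80-fold higher in supportive ISEMFs, at an RPKM of 122 against 67.7. The single gene Hoxc8, at 58.7 and 7.37, made nearly all of this difference. A read was found for 32 of the 40 rows in supportive and for 31 in non-supportive ISEMFs. Of the 40 rows, 6 had no read in either, 6 had 1 to 9 reads over both and 28 had 10 or more. An RPKM of 1 was reached by 13 Hox genes for supportive ISEMFs, 15 for non-supportive ISEMFs and 18 for at least 1 of the populations.

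The Hoxc cluster made 69.9% of the summed Hox level for supportive and 26.4% for non-supportive ISEMFs. The Hoxc sum was 85.3 against 17.8, a 4.78-fold difference. Hoxc8 alone made 48.1% and 10.9% of the Hox level, and without it the Hoxc sum was 26.6 against 10.5, which is 2.54-fold higher in supportive ISEMFs. The Hoxb cluster made the largest share in the non-supportive library, 53.1%, against 25.4% in the supportive one, although its own sum moved little, from 36.0 in non-supportive to 31.0 in supportive ISEMFs. Hoxa genes summed to 4.41 and 12.3, which is 2.79-fold lower in supportive ISEMFs. The Hoxd cluster was near silent in both, with sums of 1.24 and 1.57.

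**Figure D1:**
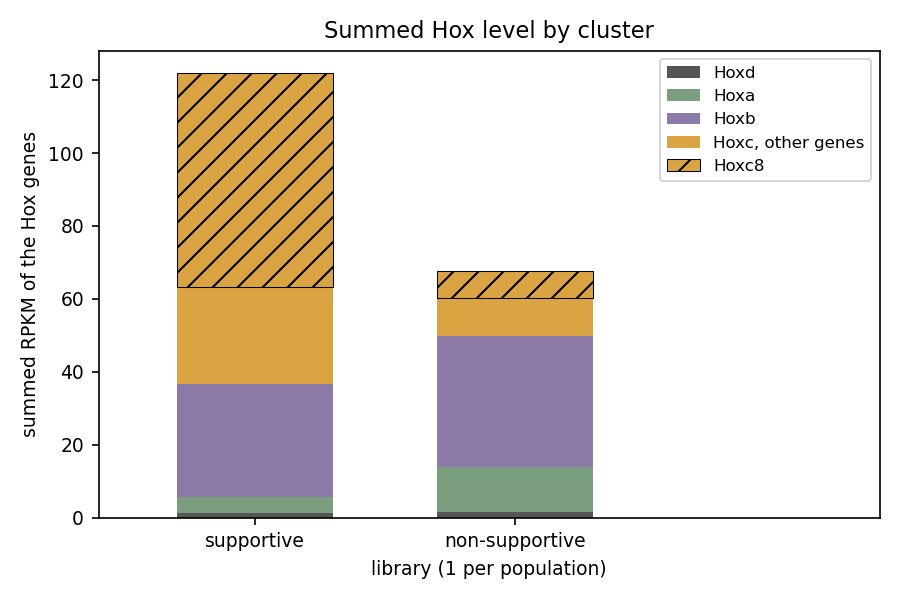
Summed RPKM of the Hox genes of each cluster in the supportive and the non-supportive library, 1 library each, with Hoxc8 hatched on top of the other Hoxc genes. Hoxc8 makes 58.7 of the 122 in the supportive bar and 7.37 of the 67.7 in the non-supportive bar, and the Hoxb block is of like size in both.

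By paralog class, the central genes made most of the level in both libraries, with sums of 106 and 54.0. Hoxc8 made nearly all of the difference between these sums. The anterior genes summed to 2.61 in supportive and 6.83 in non-supportive ISEMFs, and the posterior genes to 13.4 and 6.89. The class totals thus moved in opposite directions at the ends of the clusters. Within the posterior class, the Hoxc genes summed to 11.2 and 1.005 and the Hoxa genes to 0.379 and 0.0222. Posterior Hoxb genes summed to 1.84 and 5.67 and Hoxd genes to 0 and 0.191. The direction of the posterior sums therefore differed by cluster, with Hoxa and Hoxc higher and Hoxb and Hoxd lower in supportive ISEMFs. Hoxb9 made nearly all of the Hoxb sum and Hoxd9 all of the Hoxd sum. No posterior Hoxa or Hoxd gene reached an RPKM of 1.

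**Figure D2:**
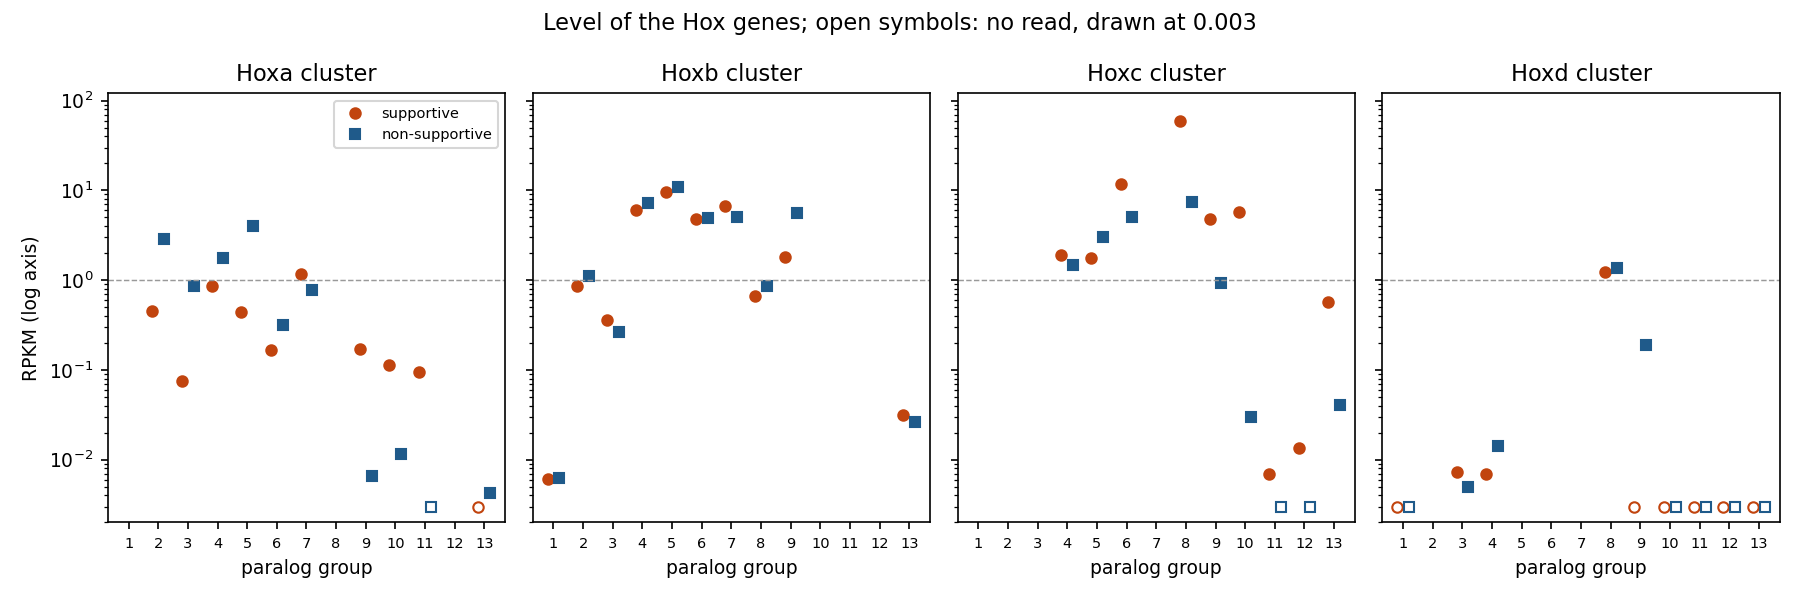
RPKM of the Hox genes on a log axis against its paralog group, in 1 panel per cluster, with circles for the supportive and squares for the non-supportive library and open symbols for genes with no read. The Hoxa3 row without reads is not drawn. Hoxc8 stands above all other Hox genes in the supportive library at 58.7, and the levels of the central Hoxb genes from Hoxb4 to Hoxb7 lie between 4.77 and 10.8 in both libraries.

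Among the 18 Hox genes that reached an RPKM of 1, 4 were at least 2-fold higher in supportive ISEMFs (Hoxc6, Hoxc8, Hoxc9 and Hoxc10) and 3 at least 2-fold lower (Hoxa2, Hoxa5 and Hoxb9). The other 11 differed by less. The 7 genes past 2-fold were 38.9% of the 18, while 18.2% of 9110 protein-coding genes at that level passed 2-fold, 9.25% higher and 8.98% lower. The ratios were formed from RPKM with 0.1 added to each value, which understates the difference of genes at low levels. The median log2 ratio of supportive over non-supportive was -0.14 for the 18 Hox genes and -0.07 for all protein-coding genes, and the median of its absolute size was 0.82 and 0.41. By cluster the median log2 ratio was 1.72 over 6 Hoxc genes, -0.93 over 5 Hoxa genes and -0.20 over 6 Hoxb genes, and Hoxd8, the one Hoxd gene at this level, was at -0.13.

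The reads of each gene were also compared as a ratio with a 95% exact interval, over genes with at least 10 reads. Such an interval covers counting error only and compares these 2 libraries, not the populations. Of 28 Hox genes, 12 had an interval above 1, 12 below 1 and 4 spanned it. Over 13874 protein-coding genes 34.8% were above and 41.3% below, so a count of 24 Hox genes off 1 is read against a background of 76.1%. For the Hoxc cluster 6 of 7 were above and 1 below, for Hoxa 4 above and 6 below, for Hoxb 2 above, 4 below and 2 spanning, and for Hoxd 1 below and 2 spanning.

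**Figure D3:**
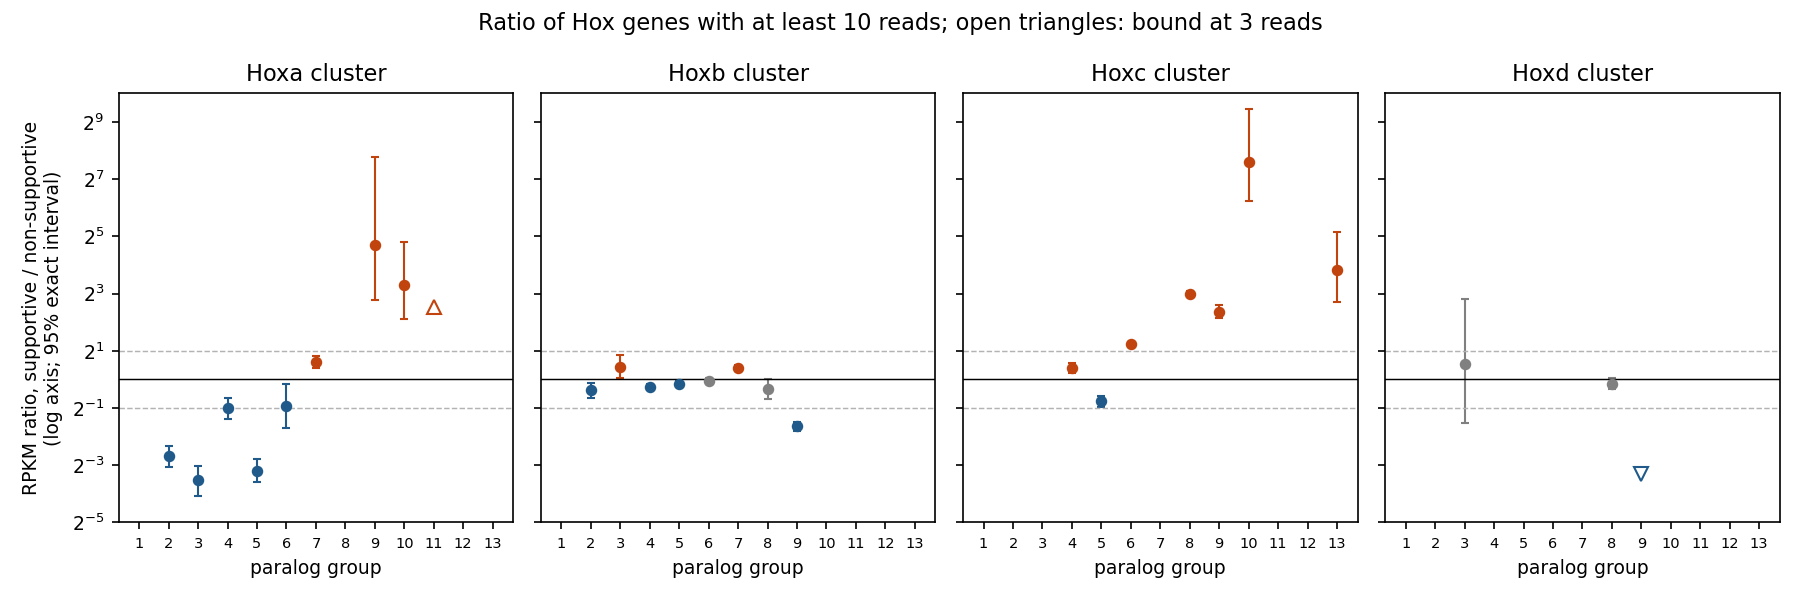
Ratio of RPKM, supportive over non-supportive, of Hox genes with at least 10 reads, on a log axis against paralog group in 1 panel per cluster, with 95% exact intervals as bars. Open triangles mark ratios with 3 reads put in place of none, where a library had no read. Hoxa2 to Hoxa6 lie below 1 and Hoxa7 to Hoxa11 above it, and Hoxc10 has the highest ratio at 192.

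Hoxc8, which patterns the thoracic skeleton and brachial motor neurons, had 9643 reads and RPKM 58.7 in the supportive library, against 1176 reads and RPKM 7.37 in the non-supportive one. It was the highest Hox gene in supportive ISEMFs and ranked 302 among all protein-coding genes there, against 3150 in non-supportive ISEMFs. The ratio was 7.97, with an interval of 7.50 to 8.47. It lies at chr15:102821053-102824698 with 2 exons. In the supportive library its level was 6.05 times that of Hoxb5 (interval 5.76 to 6.35), while in the non-supportive library Hoxb5 was the highest Hox gene, at 1.46 times the level of Hoxc8 (1.36 to 1.57).

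Hoxc10, a lumbar and hindlimb gene, lies at chr15:102797227-102802324 on the 5′ side of Hoxc8. Its 792 supportive reads gave RPKM 5.81 and its 4 non-supportive reads gave 0.0302. This was the largest ratio of any Hox gene, 192 with an interval of 74.9 to 708, and its log2 ratio of 5.50 ranked 15 from the top among 9110 protein-coding genes. Hoxc9, a thoracic gene between Hoxc10 and Hoxc8 at chr15:102806870-102815530, had 1031 and 195 reads, RPKM 4.80 and 0.933. Its ratio was 5.14 (4.40 to 6.02). Hoxc6, at chr15:102828688-102842312 on the 3′ side of Hoxc8, had 2601 and 1084 reads, RPKM 11.7 and 5.02, and a smaller ratio of 2.33 (2.17 to 2.51). The genes of this cluster that reached an RPKM of 1 and passed 2-fold thus ran in an unbroken stretch from Hoxc10 to Hoxc6.

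At the 3′ end of the same cluster the difference was small or went the other way. Hoxc4 had 563 and 417 reads and an RPKM of 1.92 and 1.47, with a ratio of 1.31 (1.15 to 1.49). Hoxc5 was lower in supportive ISEMFs, with 368 and 606 reads, RPKM 1.76 and 2.99, a 1.69-fold difference (1.49 to 1.93). At the 5′ end Hoxc13, a gene of hair and nail, did not reach an RPKM of 1. It had 101 and 7 reads, RPKM 0.574 and 0.0410, with a ratio of 14.0 (6.56 to 35.8). Hoxc11 and Hoxc12, between Hoxc13 and Hoxc10, had 1 read each, both in the supportive library, too few for a difference to be detectable.

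The Hoxa cluster changed direction along its length. Hoxa2, which patterns the hindbrain and the branchial arches, had 78 supportive and 487 non-supportive reads, RPKM 0.450 and 2.89. It lies at chr6:52112350-52115412, and its level was 6.42-fold lower in supportive ISEMFs (5.05 to 8.27).

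Hoxa3, needed for thymus and parathyroid, had 35 and 391 reads, RPKM 0.0746 and 0.857, in the row that holds reads. Its difference of 11.5-fold (8.12 to 16.7) was the largest in the lower direction among Hox genes with a read in both libraries, at a level below an RPKM of 1. The second Hoxa3 row had no read in either library, and all 2438 of its exon bases are shared with other genes. Reads there could not be given to a single gene.

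Hoxa4 had 99 and 194 reads, RPKM 0.869 and 1.75, a 2.02-fold lower level in supportive ISEMFs (1.57 to 2.60), and its log2 ratio of -0.93 with 0.1 added kept it under 2-fold. Hoxa5, which acts in the mesenchyme of lung and gut, had 59 and 524 reads, RPKM 0.440 and 4.02. It lies at chr6:52151753-52154586 and was 9.14-fold lower in supportive ISEMFs (6.97 to 12.2). Its log2 ratio of -2.93 was the lowest of any Hox gene and ranked 182 from the low end among 9110 protein-coding genes. Hoxa6 was at a low level in both, with 24 and 44 reads, RPKM 0.167 and 0.315, 1.89-fold lower (1.12 to 3.24).

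From Hoxa7 onwards the direction was the opposite. Hoxa7 had 489 and 311 reads, RPKM 1.18 and 0.772, with a ratio of 1.53 (1.32 to 1.77). The posterior genes Hoxa9, Hoxa10 and Hoxa11 were all under an RPKM of 1. Hoxa9, known from blood stem cells and leukaemia, had 54 supportive and 2 non-supportive reads, a ratio of 26.2 with a wide interval of 6.92 to 222. Hoxa10, a gene of the uterus and hindlimb, had 61 and 6 reads, a ratio of 9.88 (4.29 to 28.0). Hoxa11 had 18 reads and none. Counting the non-supportive library at 3 reads, it was 5.83-fold higher in supportive ISEMFs. The lower limit of its interval was 4.27. Hoxa13, a hindgut gene, had no supportive and 1 non-supportive read. All 3 posterior Hoxa genes with 10 or more reads thus lay above 1, and all 5 genes from Hoxa2 to Hoxa6 lay below it.

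In the Hoxb cluster 5 of the 6 genes that reached an RPKM of 1 differed by less than 2-fold. Hoxb5, a gene of the gut's neural crest and mesenchyme, had 1950 and 2103 reads, RPKM 9.70 and 10.8, 1.11-fold lower in supportive ISEMFs (1.04 to 1.18). Hoxb4, known for its action on blood stem cells, had 1802 and 2094 reads, RPKM 6.08 and 7.27, 1.20-fold lower in supportive ISEMFs (1.12 to 1.27). Hoxb6 had 1192 and 1204 reads, RPKM 4.77 and 4.95, and its ratio of 0.962 had an interval of 0.887 to 1.04. Each of these 3 central genes differed little between the libraries, and their order was the same in both. Hoxb7 was the central Hoxb gene on the higher side, with 2015 and 1482 reads, RPKM 6.71 and 5.08, and a ratio of 1.32 (1.24 to 1.41). Hoxb8 had 127 and 156 reads, RPKM 0.672 and 0.849, with a ratio of 0.791 (0.621 to 1.01).

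Hoxb9 stood apart from its neighbours. It lies at chr11:96132771-96137909 and had 469 and 1420 reads, RPKM 1.81 and 5.64, which is 3.12-fold lower in supportive ISEMFs (2.80 to 3.47). Its log2 ratio of -1.59 was the single value past 2-fold in this cluster. At the 3′ end, Hoxb2 had 202 and 256 reads, RPKM 0.856 and 1.12, 1.30-fold lower (1.08 to 1.58). Hoxb3 had 123 and 88 reads, RPKM 0.361 and 0.266, with a ratio of 1.36 (1.02 to 1.81). Hoxb1, a hindbrain gene, had 1 read in each library. Hoxb13, a gene of the hindgut and prostate, had 5 and 4 reads. When the reads of mitochondrial genes were left out of the library sizes, the log2 ratio of Hoxb6 changed sign, from -0.05 to 0.06, and the intervals of Hoxb2 and Hoxb5 came to span 1.

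The Hoxd cluster was represented by Hoxd8 and, at a low level, Hoxd9. Hoxd8 had 434 and 466 reads, RPKM 1.23 and 1.36, and its ratio of 0.905 had an interval of 0.792 to 1.03. Hoxd9 had no read in the supportive library and 29 reads, RPKM 0.191, in the non-supportive library. With 3 supportive reads in place of none it was lower in supportive ISEMFs by 9.95-fold, and by at least 7.59-fold from its interval. Its direction was that of Hoxb9 and opposite to Hoxa9 and Hoxc9. Hoxd3 had 6 and 4 reads and Hoxd4 had 2 and 4. Hoxd1, Hoxd10, Hoxd11, Hoxd12 and Hoxd13, of which the last 4 are known for limb and digit patterning, had no read in either library. At 3 reads in the supportive library an RPKM of 0.0225 would be the limit for Hoxd1 and 0.00421 for Hoxd11, the longest of the 5.

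Paralogs were then compared within each group, by level per length within a library. In group 9, Hoxc9 was 2.65 times Hoxb9 in supportive ISEMFs (2.37 to 2.96), while in non-supportive ISEMFs Hoxb9 was 6.04 times Hoxc9 (5.20 to 7.06). The summed level of the group was 6.78 in supportive and 6.77 in non-supportive ISEMFs, so its total was nearly the same while its leading member was not. In group 2, Hoxb2 was 1.90 times Hoxa2 in supportive ISEMFs (1.46 to 2.50) and Hoxa2 was 2.59 times Hoxb2 in non-supportive ISEMFs (2.23 to 3.03). Group 3 also had another leader in each library, Hoxb3 at 0.361 in supportive and Hoxa3 at 0.857 in non-supportive ISEMFs.

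Groups 4, 5, 7 and 8 kept their leader, and the distance to the next gene did not move one way. In group 8, Hoxc8 was 47.8 times Hoxd8, the next gene, in supportive ISEMFs (43.4 to 52.8) and 5.43 times in non-supportive ISEMFs (4.88 to 6.06). In group 5, the gene next to Hoxb5 was Hoxc5 in supportive ISEMFs, where Hoxb5 was 5.51 times as high (4.92 to 6.17), and Hoxa5 in non-supportive ISEMFs, where it was 2.68 times as high (2.43 to 2.95). The gap to the next gene was wider in supportive ISEMFs in groups 8 and 5, but not in groups 4 and 7. In group 6, Hoxc6 and Hoxb6 were at 5.02 and 4.95 in the non-supportive library, and at 11.7 and 4.77 in the supportive library. Their 95% intervals of counting overlapped in the non-supportive library, so no leader was shown there. Levels per length also depend on the exon length, and the intervals do not cover this. The deposited lengths are 3109 bases for Hoxc6, 3500 for Hoxb6 and 4949 for Hoxd8, against 2502, 2076 and 2744 in GENCODE vM1. The lengths of Hoxb9 and Hoxc9 differ as well. Hoxb4 led group 4, at 6.08 with Hoxc4 next at 1.92 in supportive ISEMFs. In non-supportive ISEMFs it was at 7.27 with Hoxa4 next at 1.75. Hoxb7 led group 7, with Hoxb7 and Hoxa7 at 6.71 and 1.18 in supportive and at 5.08 and 0.772 in non-supportive ISEMFs. As ratios, the gaps of groups 4 and 7 were narrower in supportive ISEMFs, and no interval was formed for them. Group 10 summed to 5.92 and 0.0416, and Hoxc10 made nearly all of it in the supportive library.

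Overlapping genes limit some of these values, because the library kit does not mark the strand and reads on bases shared by genes were dropped. By the exons of GENCODE vM1, 19 of the 40 Hox rows share exon bases with another annotated gene and 12 share over 10% of them. Hoxc6, Hoxc8, Hoxc9, Hoxa5 and Hoxb9 share none there. The deposited lengths of Hoxc6, Hoxc9 and Hoxb9 are longer, at 3109, 3008 and 3624 bases against 2502, 2430 and 2574. Whether the further bases of these genes are shared was not tested. Hoxc10 shares 8.70% with the predicted gene Gm20398 and Hoxa2 11.0% with the second Hoxa3 row. Hoxa3 shares 53.5%, Hoxb2 49.4%, Hoxb3 37.9% and Hoxd4 67.4%. Hoxb8 shares 40.4%, Hoxa11 38.6%, Hoxd3 35.8%, Hoxb7 26.2%, Hoxa7 20.4% and Hoxc5 15.4%. The values of all these genes rest on part of their exons. The shared bases stay in the exon length, so the RPKM of these genes is understated. Whether this kept Hoxa3, at 0.857 in the non-supportive library, under an RPKM of 1 was not tested. With all 12 rows that share over 10% left out, a choice made after the data were seen, the counts past 2-fold were 4 higher and 2 lower. Over all protein-coding genes at an RPKM of 1, 9.25% were higher and 8.98% lower, with no such genes left out.

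Inside the spans of the 4 clusters, 32 other genes are annotated. Of these, 18 had no read in either library, among them all 6 miRNA genes. Of the 12 with at least 10 reads, 3 had an interval above 1 and 5 below, where the background is 34.8% above and 41.3% below. The gene 5730596B20Rik, which runs opposite to Hoxa3 and shares exon bases with it, had 23 and 313 reads, 14.0-fold lower in supportive ISEMFs (9.16 to 22.4). It had the direction of Hoxa3. Reads on the bases that both share were dropped, so these reads lie on other exon bases of the gene. The gene lies inside the span of Hoxa3, and the strand of its reads is not known. Whether they come from Hoxa3 RNA was not tested. Hoxb3os, the antisense RNA of Hoxb3, had 852 and 651 reads, a ratio of 1.27 (1.15 to 1.41). The gene 0610040B09Rik, opposite to Hoxb5, had 108 and 19 reads, a ratio of 5.52 (3.37 to 9.53), while Hoxb5 itself differed by 1.11-fold. Hoxb3os and 0610040B09Rik also overlap the spans of Hox genes, and the strand of their reads is not known either.

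The protein-coding genes around the clusters were examined for comparison. Within 500 kb of the cluster spans, and inside them, 55 other protein-coding genes are annotated, and 26 of them reached an RPKM of 1. Of these 26, 1 was at least 2-fold higher in supportive ISEMFs, 3 were at least 2-fold lower and 22 differed by less, with a median log2 ratio of 0.12. The 4 past 2-fold are read against the background of 18.2% and lie near it. Around the Hoxc cluster 11 of 12 such genes were within 2-fold, and Itga5, an integrin subunit 388 kb from the cluster centre, was at a log2 ratio of -1.71. Around the Hoxa cluster 3 of 4 were within 2-fold, and the other was 5730596B20Rik, which lies inside the cluster.

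**Figure D4:**
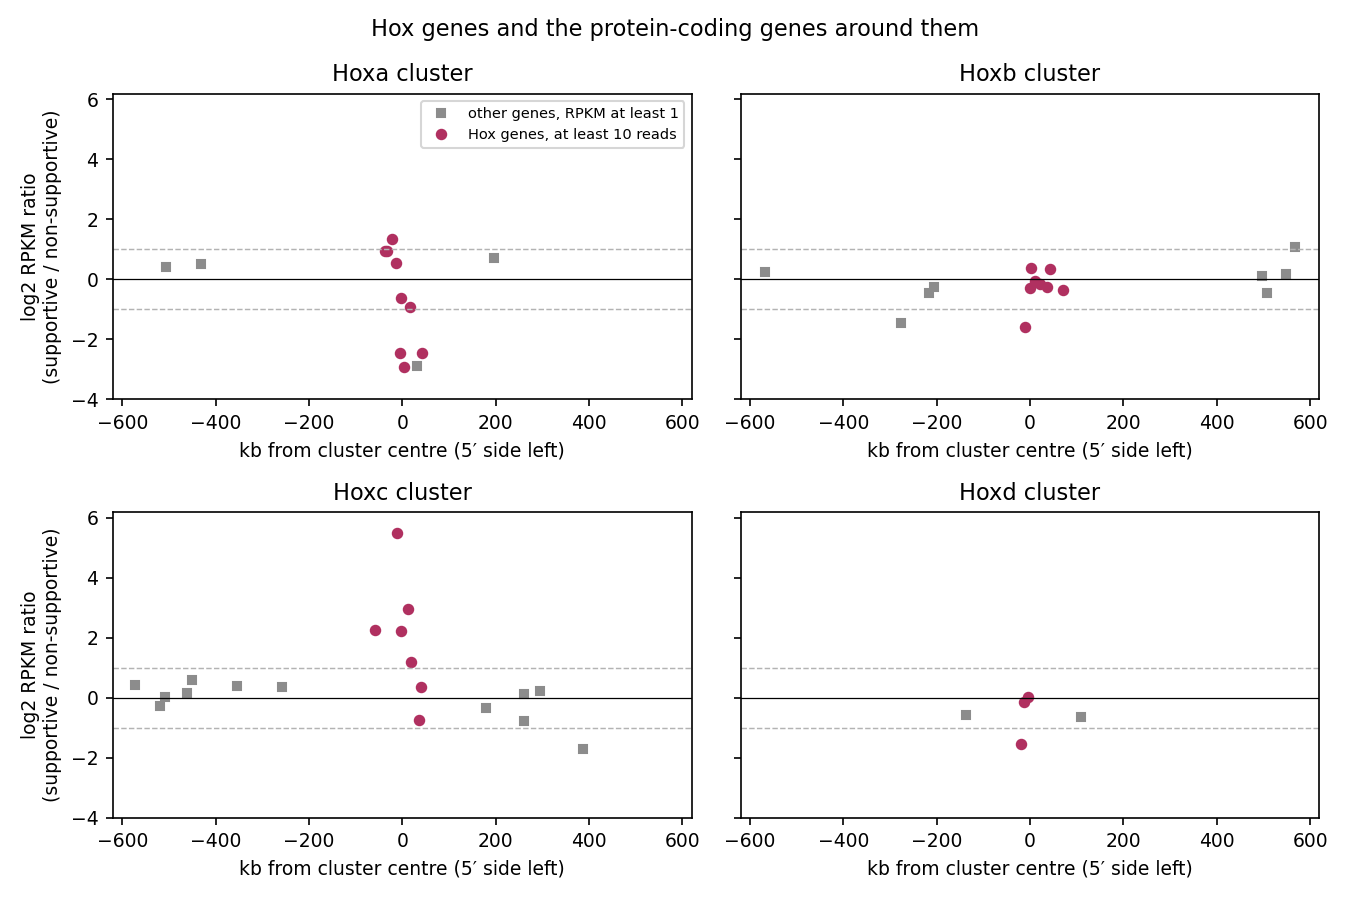
Log2 ratio of RPKM, supportive over non-supportive, against distance in kb from the centre of each Hox cluster, for Hox genes with at least 10 reads (circles) and other protein-coding genes that reached an RPKM of 1 (squares). Log2 ratios of Hoxc genes run from -0.73 to 5.50, while 22 of the 26 other genes around the 4 clusters lie within the dashed lines at 2-fold.

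Hox proteins bind DNA together with TALE homeodomain cofactors of the Pbx, Meis and Pknox families. Of 9 such genes 8 passed an RPKM of 1, and 1 was higher by at least 2-fold, none lower and 7 within, with a median log2 ratio of 0.09, near the background of 18.2% past 2-fold. The gene past 2-fold was Pknox2, with 636 and 165 reads, RPKM 2.52 and 0.672, and a ratio of 3.75 (3.15 to 4.47). Meis2, with RPKM 4.88 and 5.01, had a ratio of 0.973 (0.941 to 1.01).

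Polycomb proteins keep Hox genes silent and trithorax proteins keep them active. Of 17 Polycomb genes at an RPKM of at least 1, 1 was at least 2-fold higher and 16 were within 2-fold, with a median log2 ratio of 0.25. The gene past 2-fold was Ring1, which encodes a subunit of Polycomb repressive complexes, at RPKM 1.95 and 0.844 with a ratio of 2.32 (1.95 to 2.76). All 7 trithorax genes at that level were within 2-fold, with a median of -0.03. Over all protein-coding genes, 18.2% passed 2-fold. The caudal and ParaHox genes, relatives of the Hox genes that include Cdx1 and Cdx2 of the gut epithelium, had no read in either library for all 6 genes in the table.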

How the data were processed

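Total RNA was extracted from cultured ISEMFs, and 1 library per population was made with the TruSeq RNA kit and sequenced as single-end reads. The authors aligned reads to mm9 with TopHat (TopHat2 2.0.4 in the submitters' processing notes), using Ensembl genes, and counted unique hits per gene with HTSeq 0.5.4p3. The deposited counts are raw whole reads of each gene as the authors counted them. The RPKM values they deposited are those counts over exon length and library size. The library sizes behind them, 71463423 and 69449374, were used for ratios. The log2 ratios deposited by the authors, and the p-values and adjusted p-values that they made with DESeq, were not used, nor was a shorter table of pathway genes.

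For log2 ratios 0.1 was added to each RPKM as a pseudocount. Differences of 2-fold were counted over the protein-coding genes that reached an RPKM of 1 in a library. Ratio intervals are 95% exact Clopper-Pearson intervals over genes with at least 10 reads. Folds against a library with no read use 3 reads. With 1 library per population, no p-value is given. Hox genes with 10 reads or more are given with values. Some genes, among them 1 Hox gene that stays in the counts and sums, are not reported here. Of other lists at most 4 genes with the largest ratios are named, beside Meis2, Itga5 and the genes inside the clusters, which were named after their values were seen. Marker lists covered myofibroblasts, macrophages, epithelium, endothelium, and neurons and glia. The genes and lists were chosen with earlier results of these data known. Coordinates are from GENCODE vM1, where all 37309 identifiers were found and 25 of 40 Hox rows had the same exon length as in the table. As alternatives, 1 or 0.001 was added instead, the minimum RPKM was 5 or none, and the others were a 4-fold threshold, a minimum of 50 reads, and scaling by total reads, TMM, median-of-ratios size factors or totals without mitochondrial genes. The steps were tested on simulated data. Python 3.11.15, pandas 2.3.3, scipy 1.17.1, R 4.3.3 and edgeR 4.0.16 (TMM factors) were used.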

Additional observations from a re-analysis of the deposited data

How the results depend on the processing

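No paired analysis was possible because each population has 1 library, and for the same reason no replicate could be left out. Depth limits the Hox genes with under 10 reads, for which no difference was detectable. The counts of 4 Hox genes 2-fold higher and of 12 intervals above and 12 below 1 moved by no more than 1.5 times under the alternatives run, the first from 3 to 6. The first count was 3 of 7 at a minimum RPKM of 5 and 6 of 40 rows with no minimum. Over all protein-coding genes, 8.47% of 4725 and 5.63% of 22379 were higher at these settings. At a 4-fold threshold it was 3 of 18 Hox genes, against 3.36% of 9110. Leaving the mitochondrial genes out of the totals shifted every log2 ratio by 0.12, taking the median of protein-coding genes from -0.07 to 0.05 and that of the central class from -0.09 to 0.02. It left 10 of 28 intervals below 1, a share not computed there for all genes, and moved the Hoxb median from -0.20 to -0.082. With a pseudocount of 1 the medians were -0.56 for Hoxa, 1.33 for Hoxc, -0.54 for the anterior class (from -0.91) and 1.58 for the posterior class (from 2.24). With a minimum RPKM of 5, 1 of 7 Hox genes was 2-fold lower, where 9.25% of 4725 protein-coding genes were. The medians of all Hox genes and of the central class turned to 0.40 over 7 and 5 genes. Those of Hoxc and the posterior class were 2.98 and 1.96. No Hoxa, Hoxd or anterior gene remained there, so these have no value. With no minimum, 5 of 40 Hox rows were lower, where 6.17% of 22379 protein-coding genes were. The medians were then -0.35 for Hoxa, 1.21 for Hoxc, -0.0024 for the anterior and 0.080 for the posterior class. The values under another minimum rest on which genes are included. Leaving out the 12 rows that share over 10% of their exon bases, chosen after seeing the data, gave 8 intervals above and 8 below 1 among the 28 rows left. Over all protein-coding genes with at least 10 reads, 34.8% were above and 41.3% below, with no such genes left out.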

Other observations

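Transcription factors known from gut regions and gut mesenchyme were also examined, as a list written with earlier results of these data known. The table holds 22 of them, of which 9 reached an RPKM of 1, and 3 were at least 2-fold higher in supportive ISEMFs, 3 at least 2-fold lower and 3 within, against 18.2% of all protein-coding genes past 2-fold. Foxf2, a forkhead factor of the gut mesenchyme, had 64 supportive and 918 non-supportive reads, RPKM 0.379 and 5.59, 14.8-fold lower (11.4 to 19.3). Osr1, a factor of intermediate mesoderm, was at RPKM 4.96 and 1.20, and Tbx18, a T-box gene of pericytes and mesothelium, at 2.74 and 9.49. Of the 22 genes, 7 had no read in either library.

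A list of genes beside or between the Hox genes had 14 members in the table, and all 8 with an RPKM of at least 1 were within 2-fold, with a median log2 ratio of -0.11, beside 18.2% of all protein-coding genes past 2-fold.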
